A study of Mus musculus with 3 samples.

Results

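The genes described here were the receptors and Smads that carry the transforming growth factor β (TGF-β) signal, together with the negative regulators of the same route, as measured in mouse LT-HSCs (long-term hematopoietic stem cells) of a control and of genotypes labelled as lacking Atm alone or Atm and p38α. The group held 10 genes, namely the receptors Tgfbr1, Tgfbr2 and Tgfbr3, the signal-carrying Smads Smad2, Smad3 and Smad4, and the inhibitors Smad7, Ski, Skil and Pmepa1. They were taken by gene name from 37323 genes on the array, and every probe that the array carries for them was used, which gave 21 of 56600 probes. The group was selected on processed signals of these same arrays, the low signal of Pmepa1 on both mutant arrays among them, so the values below are a description and no test was run on them.

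LT-HSCs are the bone marrow cells that renew themselves and supply all blood lineages. The study asked what loss of p38α does to stem cells that lack Atm, the kinase that signals DNA breaks. The cells came from C57BL/6J mice and were sorted, per the labels, as CD150+CD48-Flt3-CD34- cells of the LSK fraction, which lacks lineage markers and carries Sca-1 and c-Kit. WT was the control. AtmsKO came from CAG-CreERT2 Atm fl/fl mice, and Atmp38dKO from CAG-CreERT2 mice with both Atm fl/fl and p38α fl/fl alleles. The CAG promoter is active in most tissues, so deletion by this Cre, which tamoxifen sends to the nucleus, was not limited to blood cells. Tamoxifen was given at about 5 weeks of age and analysis followed 4 weeks later per the series text, whereas the labels give 11 weeks as the age. Controls also received tamoxifen but had no Cre, and both sexes were used, per the methods. How many mice stood behind an array is not given in the sources used here. Each genotype had 1 array, so there was no spread between mice and no p-value, and each difference below is between arrays.

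TGF-β is a secreted factor known for holding hematopoietic stem cells in a quiet state. The ligand brings a type II receptor (Tgfbr2) to a type I receptor (Tgfbr1), with the co-receptor betaglycan (Tgfbr3) helping to present some ligands. The active type I receptor phosphorylates Smad2 and Smad3, which join Smad4 and enter the nucleus to change transcription. The route induces its own brakes. Smad7 occupies the type I receptor and brings in ubiquitin ligases, Ski and Skil (SnoN) are nuclear co-repressors that bind the Smads, and Pmepa1 is a membrane protein that binds Smad2 and Smad3 and keeps them from the receptor.

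Each gene was read by synthetic probes of 60 bases, and for genes with several probes the text below turns on which probe was read. The first 30 bases of the probes on which the results turn are shown, 5′ to 3′ on the transcript strand and in lower case throughout, since no base is singled out. Pmepa1 had a single probe, on chromosome 2 (mm9, chr2:173053319-173053378, minus strand).
Pmepa1: acattgccccactggagaacaaggagaagg
Skil had 3 probes on the plus strand of chromosome 3, the brightest at chr3:31021022-31021081 and the others 24.3 kb and 25.1 kb further 5′, at chr3:30996695-30996754 and chr3:30995904-30995963.
Skil 1: tagagtttgggataaatgtagtcaccatta
Skil 2: ccaaccaaactcaaccattacaccgaactt
Skil 3: gggagtctatttcttgttttcaagttggag
In this order Skil 2 lies furthest 5′ and Skil 3 beside it, and the numbers follow the brightness. Tgfbr1 had 4 probes on the plus strand of chromosome 4. The brightest lay at chr4:47427421-47427480. The next was listed from 47419898 to 47423556, a span of 3659 bases for a probe of 60, so its parts are not contiguous in the genome. The third and the fourth were designed to transcript models of Ensembl and lay at chr4:47374114-47374173 and chr4:47395833-47395892, which is 53.3 kb and 31.6 kb 5′ of the brightest.
Tgfbr1 1: aaagtgtgagtgttacgttgctaagttact
Tgfbr1 2: attccaaacagatggcagagctgtgaggcc
Tgfbr1 3: gtgcataaaaagtgcatggtaaataaagtg
Tgfbr1 4: tggatttccaggatgaatatgggtctctga
For Ski, Tgfbr3, Smad3 and Tgfbr2 the brightest probe is shown. Ski lay at chr4:154528495-154528554, minus strand, Tgfbr3 at chr5:107535818-107535877, minus strand, and Smad3 at chr9:63494574-63494633, minus strand. For Tgfbr2 the file lists only 10 bases, chr9:115996798-115996807, minus strand.
Ski: ctgagggggaggggctcttgctttaagtca
Tgfbr3: gggggttcgttcattaaactgacagatatt
Smad3: tataaacgcccttctaataaacttttcacc
Tgfbr2: cgtcattcctcaaagtgttgactcttgttc
Coordinates are those of the array design on mm9. An annotation of that build was not used here, so the probes were not assigned to exons, introns or untranslated regions.

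The other members, Smad2, Smad4 and Smad7, lie on chromosome 18 and had 8 probes, whose sequences are not shown. The signal is the processed fluorescence of a spot in arbitrary units, and ± after it is the error that the scanner software's error model gives for the spot, which covers noise within an array and no difference between mice. All 21 probes had 1 spot on each array. A normalized difference is on the log2 scale after each array was set to its 75th percentile (102 units for WT, 96.2 for AtmsKO and 118 for the array labelled Atmp38dKO), and its ± is the same scanner error carried through. Triplets of signals are given in the order WT, AtmsKO, Atmp38dKO. In that order, 73.3%, 68.9% and 77.7% of all probes were well above background, no spot was saturated, and the 3 arrays lay on 1 slide read in 1 scan. The targeted gene Atm was lower on the AtmsKO array at both of its probes (signals of 87, 23.9 and 86.5, and of 88.8, 16.3 and 49). On the array labelled Atmp38dKO, Atm differed from WT by -0.22 and -1.07 (log2) at those probes. Mapk14, which encodes p38α, was not lower there at either probe, with signals of 469, 558 and 616 and of 295, 260 and 345. Whether these probes lie in the deleted exons was not determined, so the array is called "labelled Atmp38dKO" throughout. All 12 genes of a stem cell marker list were well above background on every array. So were all 12 granulocyte or monocyte and all 7 stromal cell markers, so passing background does not tell cell types apart. The summed stem cell signal over the 75th percentile was 146, 148 and 131. Fgd5 (198, 146 and 69.8) and Hoxb5 (91.4, 107 and 34) were lower on the array labelled Atmp38dKO, whereas Kit (2652, 2773 and 3248) was not. The sort also excluded cells by surface proteins, among them CD34, Flt3 and CD48 per the labels, lineage markers, and CD41 (gene Itga2b) per the methods. The genes of these 4 named proteins were well above background on every array too, with Cd34 at 1694, 1666 and 2185, Flt3 at 79.4, 70.3 and 101, Cd48 at 17.2, 21.2 and 34, and Itga2b at 169, 120 and 167. Of the lineage markers in the methods, Itgam (Mac-1) at 33134, 32383 and 33895 and Cd4 at 484, 448 and 608 were as well. Cd8a (7.57, 7.96 and 4.77) was not on the array labelled Atmp38dKO.

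Among the inhibitors, Pmepa1 stood furthest from WT. The WT array read 106 ± 10.7 units for it, the AtmsKO array 13 ± 1.86 and the array labelled Atmp38dKO 16.2 ± 1.95, each well above background. Both mutant arrays thus lay far below WT and close to each other. The normalized difference was -2.96 ± 0.25 for AtmsKO (7.78-fold lower) and -2.93 ± 0.23 for the array labelled Atmp38dKO (7.63-fold lower), and the mutant arrays differed from each other by 0.03 ± 0.27. These comparisons share the WT array, so a high value on that one array would give both. With the background modelled in another way (normexp), the differences were -1.19 and -1.35, the same direction at a smaller size. In RNA from sorted cells, fewer Pmepa1-expressing cells and less Pmepa1 RNA per cell cannot be told apart.

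Across probes of like brightness (a mean of 20 to 50 units over the arrays), the central 95% of differences ran from -1.52 to 1.42 for AtmsKO and from -1.49 to 1.43 for the array labelled Atmp38dKO, and Pmepa1 lay below both ranges. Of 8984 such probes, 9 (0.1%) were as far below WT as Pmepa1 on the AtmsKO array, and of 9037, 26 (0.288%) on the array labelled Atmp38dKO, Pmepa1 included. The low Pmepa1 signal was among the values on which the group was selected, so these shares describe its place and are no test. The 5 genes whose pair of differences from WT was nearest to that of Pmepa1, among 13857 genes with a RefSeq messenger RNA probe well above background on the 3 arrays, were Npy2r, Olfr167, Pdzd9, Gabrb1 and Ptx3. Npy2r, a neuropeptide Y receptor, read 74.3, 9.4 and 11.5 and lay 0.06 (log2) away. Olfr167, an olfactory receptor gene, read 74.9, 8.66 and 9.47 and lay 0.28 away. Pdzd9 read 162, 24.9 and 22.5 and lay 0.36 away. Gabrb1 read 59.4, 7.23 and 6.91 and lay 0.39 away. Ptx3, a secreted pentraxin, read 93.8, 8.06 and 13.6 and lay 0.51 away. The distance rests on 3 arrays. Of 8 megakaryocyte or platelet markers, all well above background on every array, Pf4 was higher on both mutant arrays, at 1020, 2366 and 1536. In signal, Ppbp (8.91, 15.5 and 12.6) and Gp1ba (54.8, 74.4 and 126) were higher there too. Itga2b and Gp6 (25.3, 21.9 and 23.1) were lower on both. Gp5 (82.3, 113 and 32.9) did not share a direction between the mutant arrays. Gp1bb (354, 333 and 411) and Gp9 (108, 103 and 125) followed the 75th percentiles of the arrays (102, 96.2 and 118). No difference beyond array brightness was read from them. The summed signal of the list, divided by the array's 75th percentile, was 17.9, 32.7 and 20.7, and without Pf4 it was 7.9, 8.11 and 7.62. Whether these markers relate to the Pmepa1 difference was not tested.

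Skil, the brightest gene of the group, was lower than WT on both mutant arrays at all 3 probes. Skil 1 read 1684 ± 168, 1399 ± 140 and 1454 ± 145. Skil 2 read 511 ± 51.1, 405 ± 40.5 and 386 ± 38.6. Skil 3, next to it in the genome, read 557 ± 55.7, 371 ± 37.1 and 322 ± 32.3. WT was the highest array at each probe. Normalized differences from WT at Skil 1, 2 and 3 were -0.19, -0.26 and -0.51 for AtmsKO and -0.43, -0.62 and -1 for the array labelled Atmp38dKO, each with a scanner error of 0.20. Skil 3 was thus 2-fold lower on the latter, right at the threshold, and was under it with quantile normalization and with normexp background. That difference lay outside the central 95% of probes at 200 to 1000 units, which ran from -0.72 to 0.68, whereas Skil 1 and Skil 2 lay inside theirs. On AtmsKO all 3 Skil probes lay inside theirs.

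The other inhibitors had smaller differences. Ski, the co-repressor related to Skil, read 120 ± 12.1 on WT, 84.5 ± 8.56 on AtmsKO and 99.5 ± 10 on the array labelled Atmp38dKO. Its differences from WT, -0.43 ± 0.21 and -0.49 ± 0.21, were near the size of 2 scanner errors. Smad7 read 208, 203 and 177 at the brighter probe and 162, 146 and 112 at the dimmer one. The AtmsKO array was level with WT at both Smad7 probes, with differences of 0.05 and -0.07, each within a scanner error of 0.20. The array labelled Atmp38dKO was lower, by -0.44 and -0.75 against WT and by -0.49 and -0.68 against AtmsKO. For Skil, Ski and Pmepa1 AtmsKO was also below WT, though Skil 1 by -0.19, within its scanner error of 0.20. No test of a difference between Smad7 and these genes could be made with 1 array a group.

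Over the 7 inhibitor probes, 6 were below WT on the AtmsKO array and 7 on the array labelled Atmp38dKO, with median differences of -0.26 and -0.62. Of all probes tested, 21336 of 42936 and 21970 of 45516 lay below WT, with medians of 0.00 and 0.02. Pmepa1 and the 3 Skil probes are 4 of these 7, and probes of 1 gene are not independent. Under the other backgrounds and scalings tried, 6 or 7 of the 7 lay below WT on AtmsKO and 7 of 7 on the array labelled Atmp38dKO. With normexp background the medians were -0.24 and -0.50.

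**Figure D1:**
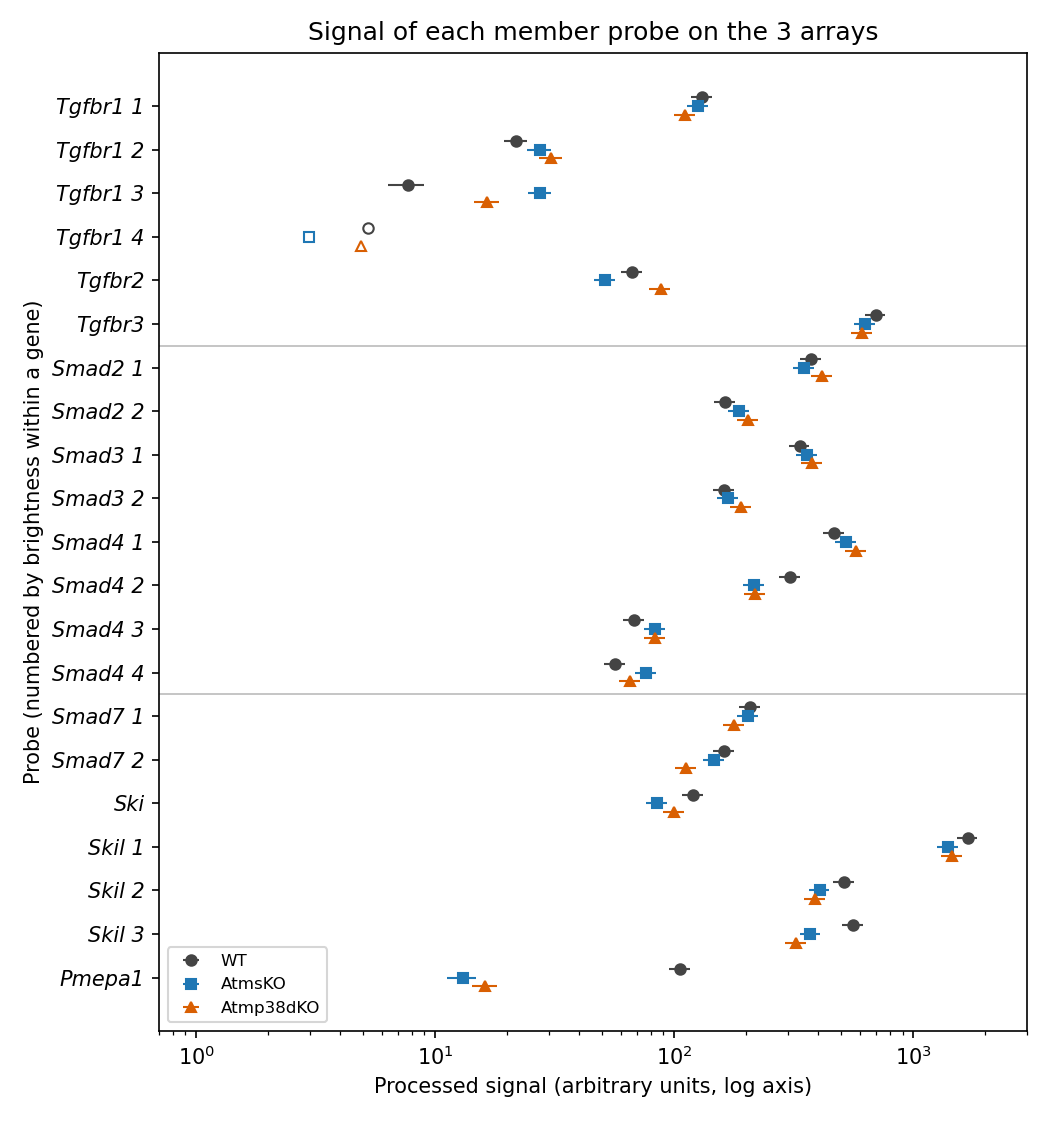
Processed signal (arbitrary units, log axis) of the 21 probes per array, with receptors at the top, signal-carrying Smads in the middle and inhibitors at the bottom. Bars are scanner errors within an array, open symbols mark values not well above background, and probes of a gene are numbered by brightness. The WT point of Pmepa1 at 106 stands apart from 13 and 16.2 on the mutant arrays, while most other probes overlap.

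The signal-carrying Smads were close to WT. Smad2 and Smad3, the Smads that the receptor phosphorylates, lay on chromosomes 18 and 9. Smad2 read 373 ± 37.4, 349 ± 34.9 and 416 ± 41.6 at the brighter probe and 163 ± 16.3, 186 ± 18.7 and 204 ± 20.4 at the other. Smad3 read 334 ± 33.4, 359 ± 36 and 377 ± 37.7 at the brighter probe and 161 ± 16.1, 168 ± 16.9 and 190 ± 19 at the other. No array stood out at these 4 probes, and the differences from WT ran from -0.02 to 0.27 for AtmsKO and from -0.06 to 0.11 for the array labelled Atmp38dKO. With a scanner error of 0.20 on each, only Smad2 at its dimmer probe on AtmsKO exceeded it.

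Smad4, the common partner of the receptor-regulated Smads, gave different answers at different probes. The brightest probe read 467 ± 46.8, 522 ± 52.2 and 573 ± 57.3. The second, 19.6 kb 5′ of it, read 305 ± 30.5, 215 ± 21.5 and 217 ± 21.7. The third and the fourth read 67.7, 83.2 and 83.3 and 56.6, 76.2 and 65.5. In signal, WT was the highest array at the second probe and the lowest at the other 3. After normalization, the differences from WT at the 4 probes were 0.24, -0.43, 0.38 and 0.50 for AtmsKO and 0.08, -0.71, 0.08 and -0.01 for the array labelled Atmp38dKO. The gap between the highest and the lowest Smad4 probe was below 1 (log2) in each comparison with WT. Over 4115 genes with several probes of at least 50 units, the median gap between probes was 0.37 and 0.36 in these comparisons and the 90th percentile 1.06 and 1.04.

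Over the 8 probes of Smad2, Smad3 and Smad4, 6 were higher and 2 lower than WT on the AtmsKO array, with a median of 0.21, and 4 were higher and 4 lower on the array labelled Atmp38dKO, with a median of 0.01. Set against AtmsKO, all 8 were lower on the array labelled Atmp38dKO, by -0.04 to -0.51 with a median of -0.19, a size within the scanner error of 1 probe. Of all probes tested, 22512 of 44793 lay below 0 in that comparison.

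The receptors differed from WT by less than 2-fold, apart from 1 dim Tgfbr1 probe. Tgfbr3 was the brightest at 694 ± 69.4 on WT, 627 ± 62.8 on AtmsKO and 608 ± 60.8 on the array labelled Atmp38dKO, with differences from WT of -0.07 and -0.41. Tgfbr2 read 66.7 ± 6.77, 51.3 ± 5.31 and 87.5 ± 8.82. AtmsKO was the lowest array for Tgfbr2 and the array labelled Atmp38dKO the highest, 0.48 ± 0.21 apart, and their differences from WT were -0.30 and 0.18. Of the 10 genes at their brightest probes, Tgfbr2 and Pmepa1 were the 2 whose normalized difference between the array labelled Atmp38dKO and AtmsKO was not below 0, and Pmepa1 was higher by 0.03 only, turning to -0.16 with normexp background and -0.06 with quantile normalization.

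Tgfbr1, the kinase that phosphorylates Smad2 and Smad3, was near WT at its brightest probe. Tgfbr1 1 read 131 ± 13.2 on WT, 126 ± 12.7 on AtmsKO and 111 ± 11.2 on the array labelled Atmp38dKO, and differed from WT by 0.02 ± 0.21 and -0.45 ± 0.21. Tgfbr1 2, across the gap in the genome, read 21.8 ± 2.49, 27.3 ± 3.07 and 30.5 ± 3.27, with WT the lowest. Tgfbr1 3, the probe furthest 5′, read 7.67 ± 1.32, 27.5 ± 3.01 and 16.5 ± 1.93. WT was close to the lowest signal that counted as well above background on that array, 5.33 units. The differences at Tgfbr1 3 were 1.92 ± 0.29 for AtmsKO (3.78-fold higher) and 0.89 ± 0.30 for the array labelled Atmp38dKO, and the latter was 2.04-fold lower than AtmsKO. With normexp background these were 0.52, 0.10 and -0.42, all under 2-fold. Tgfbr1 4 was not well above background on any array, so it gave no difference.

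**Figure D2:**
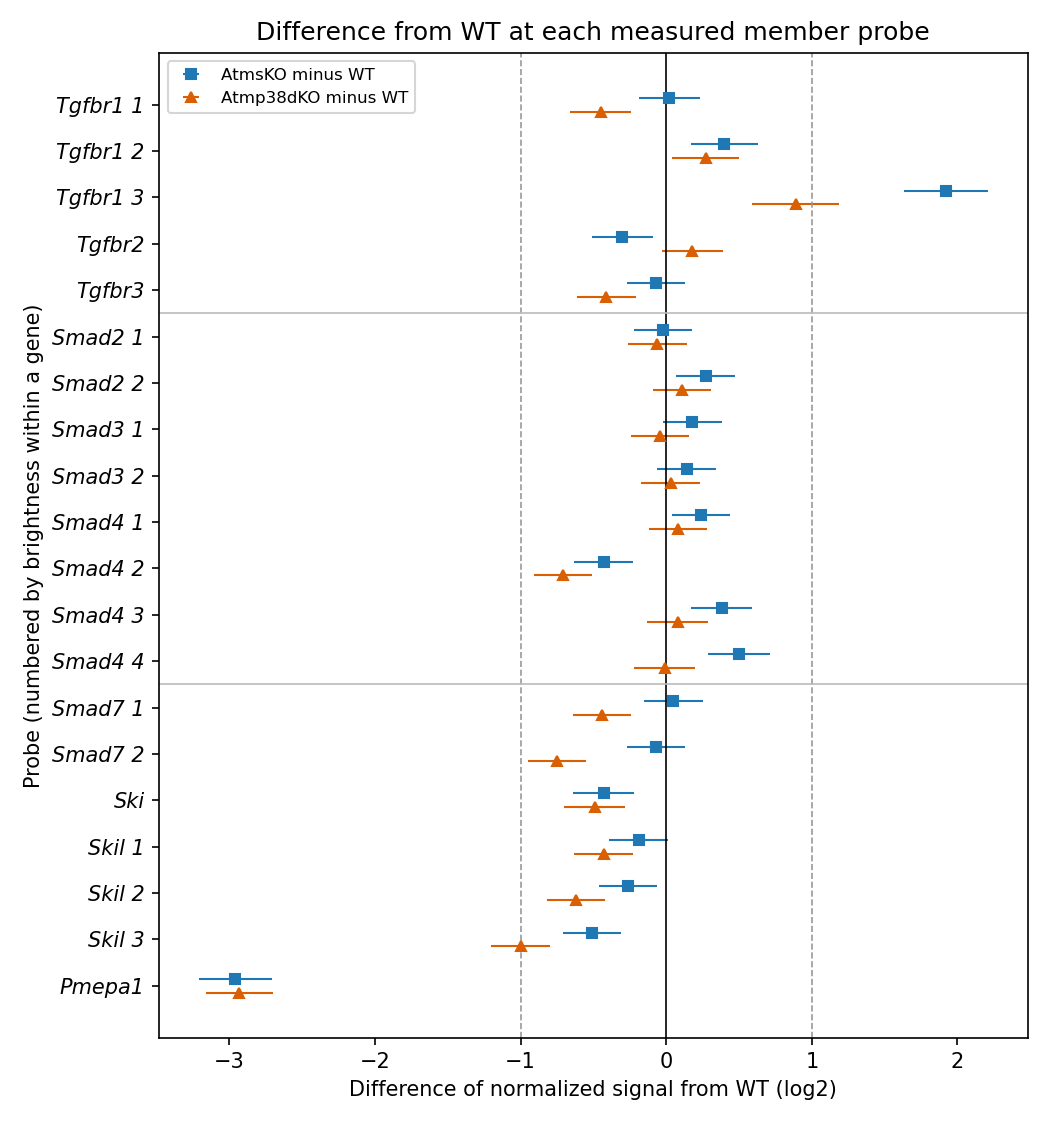
Difference from WT (log2 of normalized signal) at the 20 probes well above background on all arrays, for the AtmsKO array and the array labelled Atmp38dKO, in the same order of probes. Bars are scanner errors and dashed lines mark 2-fold; Pmepa1 at -2.96 and -2.93 and Tgfbr1 3 at 1.92 lie beyond them, and Skil 3 sits on the line.

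**Figure D3:**
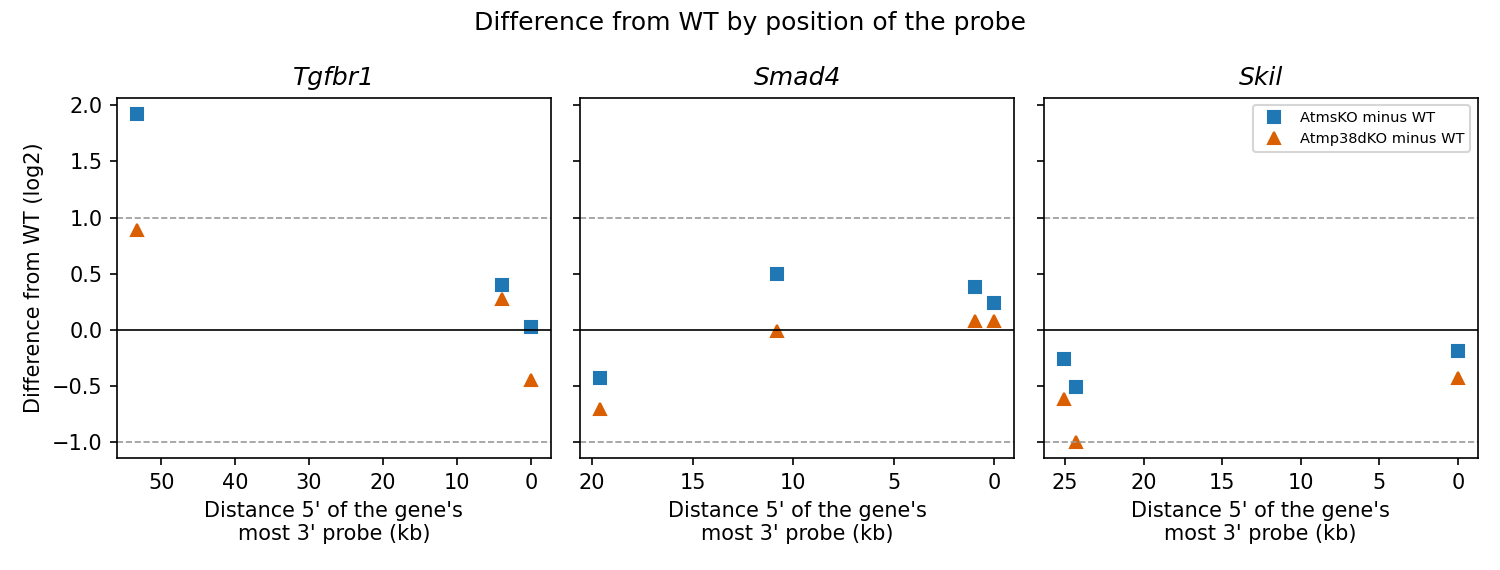
Difference from WT (log2) of each probe well above background against its distance in kb from the most 3′ probe of the gene, for Tgfbr1, Smad4 and Skil; dashed lines mark 2-fold. In Tgfbr1 the probe 53.3 kb away reads 1.92 on AtmsKO while the most 3′ one reads 0.02, in Smad4 the probe 19.6 kb away lies below 0, and all 3 Skil probes lie below 0 on both arrays.

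Counted by probe, 20 of the 21 were measured. Against WT, 1 was at least 2-fold higher on AtmsKO (Tgfbr1 3) and 1 at least 2-fold lower (Pmepa1), where 4.29% of all probes tested were higher and 4.74% lower. On the array labelled Atmp38dKO, 0 were higher and 2 lower than WT (Pmepa1 and Skil 3), against 4.69% and 5.07% of all probes. Between both mutant arrays, 0 were higher and 1 lower (Tgfbr1 3), against 4.39% and 4.07%. The group was chosen with some of these values known, and counts of 1 or 2 in 20 are near the share of all probes. The median over the 20 was -0.00 for AtmsKO against WT, and the array labelled Atmp38dKO had medians of -0.23 against WT and -0.26 against AtmsKO, where the medians of all probes were 0.02 and 0.00 in size.

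Counted by gene at the brightest probe, Pmepa1 was the only one of 10 to differ 2-fold, and it did so in both comparisons with WT. Of all genes tested on AtmsKO against WT, 3.86% were at least 2-fold higher and 4.04% lower. With the array labelled Atmp38dKO in place of AtmsKO, these shares were 3.98% and 4.46%. Between the mutant arrays they were 3.72% and 3.64%, and there no member differed 2-fold. Set against probes of like brightness, 18 of the 20 measured probes lay inside the central 95% in each comparison with WT, and all 20 between the mutant arrays.

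The wider pathway was read through a list of 90 further genes in 14 groups, at the brightest probe of each. For AtmsKO against WT, 80 could be compared, of which 1 was at least 2-fold higher and 6 lower. Of all genes tested, 3.86% were higher and 4.04% lower. The median was -0.10, against 0.01 over all genes. The array labelled Atmp38dKO, compared with WT in 81 genes, gave 2 higher and 5 lower, where all genes gave 3.98% and 4.46%. The median was -0.09 against 0.02. Between the mutant arrays, 5 of 81 were higher and 1 lower on the array labelled Atmp38dKO, where all genes gave 3.72% and 3.64%. The median was 0.04. With normexp background at most 1 gene differed 2-fold in any of these counts.

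Of the ligands, Tgfb1, the main TGF-β of blood cells, read 294, 278 and 283 at its brightest probe, for normalized differences from WT of -0.00 and -0.27 with a scanner error of 0.20. Its other probe gave 0.10 and 0.15, so the probes did not share a direction. Gdf11, an activin-like ligand, read 32, 44.4 and 110 and was higher on the array labelled Atmp38dKO by 1.57 against WT. Inha, the inhibin α chain, read 12.3, 12.1 and 35.8 and was higher there by 1.32. Inhba, the chain that forms activin A, was dim at 11.3 and 15.7 on WT and AtmsKO and not well above background at 4.5 on the array labelled Atmp38dKO, at least 2.65-fold lower than WT. These ligands thus did not share a direction. Thbs1, thrombospondin, which frees TGF-β from its latent complex, read 77.6, 27.1 and 37.2 and was lower than WT on both mutant arrays, by -1.44 and -1.27. Lrrc32 (GARP), which holds latent TGF-β at the cell surface, read 15.9, 6.99 and 18.4, with AtmsKO alone below WT, by -1.11. Bmp4, a ligand of the bone morphogenetic protein branch, read 159, 69.6 and 159 and was lower by -1.11 on AtmsKO. Lefty1, a secreted antagonist of Nodal, read 21, 50.9 and 47 and was higher by 1.35 on AtmsKO.

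Genes that TGF-β is known to induce lay mostly below WT. On the AtmsKO array 10 of 14 target genes were below and 4 above WT, with a median of -0.22, and on the array labelled Atmp38dKO 13 were below and 1 above, with a median of -0.35. Over all genes tested, 14245 of 29044 and 14673 of 30670 were below WT. Cdkn1a, the p21 cell cycle inhibitor, which p53 also induces, read 213, 94.7 and 135, for differences of -1.10 and -0.88. Cyr61, a matricellular protein, read 62.6, 37.3 and 27.9, for -0.67 and -1.38. Both Cyr61 differences lay inside the central 95% of probes of like brightness. Cdkn1a on AtmsKO lay just outside its range of -1.05 to 1.05. Cdkn1c, the p57 cell cycle inhibitor associated with quiet stem cells, read 188, 138 and 144, for -0.38 and -0.61. Klf10 and Tsc22d1, transcription regulators first known as TGF-β-induced genes, read 1531, 1490 and 1329 and 5626, 5745 and 4600 at their brightest probes. There AtmsKO was near WT and the array labelled Atmp38dKO lower, by -0.42 and -0.51. Of 4 other Tsc22d1 probes measured on WT and the array labelled Atmp38dKO, only 2 shared that direction. Tgfbi was the 1 above WT there, at 106, 97 and 172. Fn1, fibronectin, read 27.2, 6.45 and 25.7, was not well above background on AtmsKO and was 3.99-fold lower than WT there. Another Fn1 probe gave the opposite, at 5.4, 24.8 and 22.5, with WT not well above background and AtmsKO 4.85-fold higher. Of the 14, 2 were at least 2-fold lower on AtmsKO (Cdkn1a and Fn1) and 1 on the array labelled Atmp38dKO (Cyr61). Over all genes tested, these shares were 4.04% and 4.46%. Among bone morphogenetic protein targets, Id1 read 339, 249 and 153, for -0.36 and -1.36. Id2 read 273, 186 and 227, for -0.47 and -0.48, and its other measured probe did not share that direction in either comparison. Id3 read 150, 115 and 182, for -0.31 and 0.06. Many of these genes have other inducers, and the comparisons share the WT array.

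**Figure D4:**
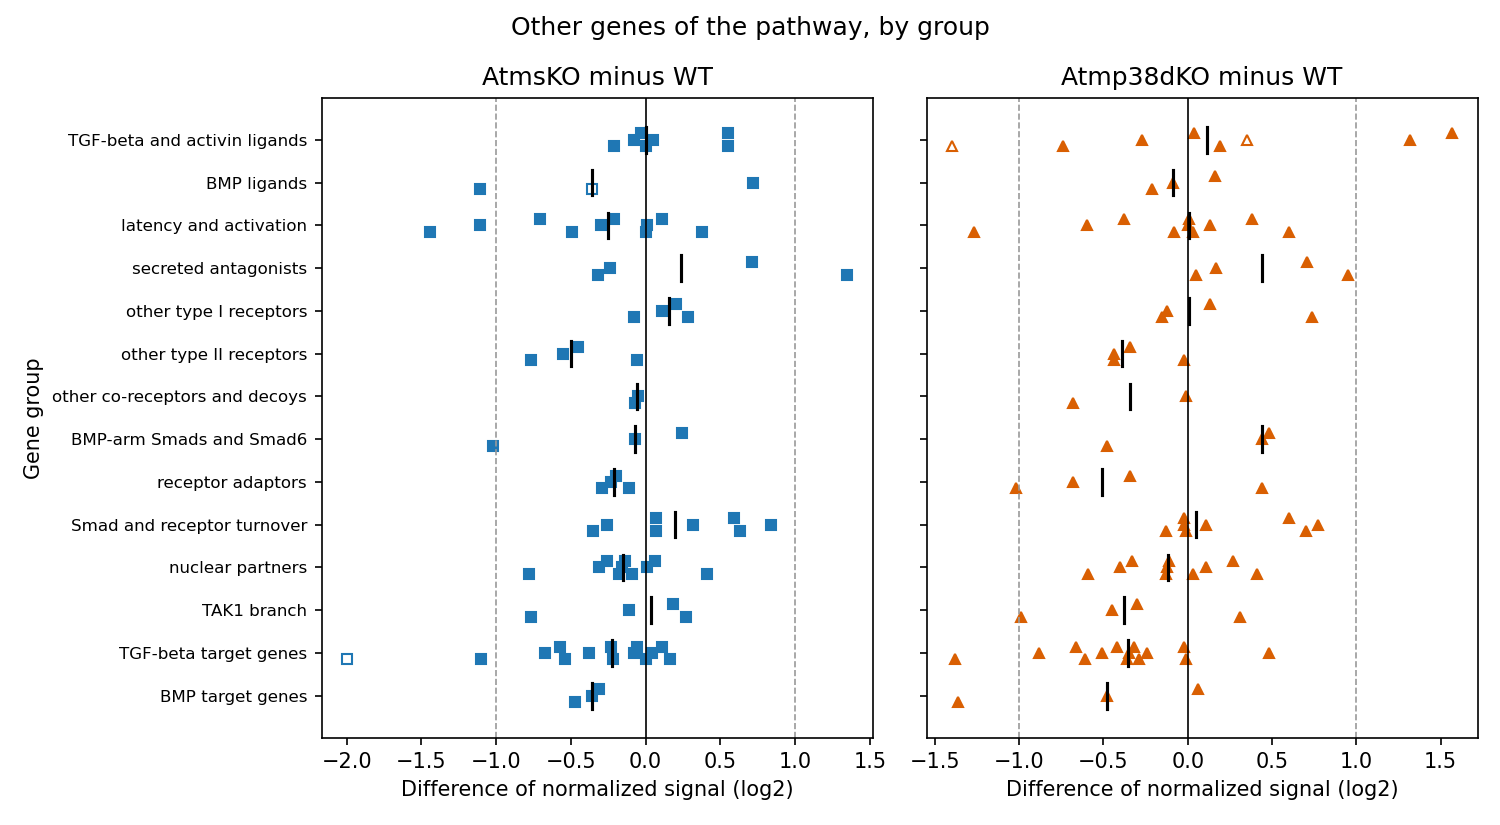
Difference from WT (log2 of normalized signal) of the other pathway genes, 1 point per gene in 14 groups, for AtmsKO on the left and the array labelled Atmp38dKO on the right. Short bars are group medians, dashed lines mark 2-fold and open symbols are values not well above background on 1 of both arrays. The TGF-beta target genes have medians of -0.22 and -0.35.

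Of the mutant arrays, the one labelled Atmp38dKO was slightly lower after normalization for 8 of 10 members at the brightest probe. By probe, 18 of 20 lay below 0 against AtmsKO, where 22512 of 44793 over all probes did, and probes of 1 gene are not independent. All member differences but that of Tgfbr1 3 were under 2-fold. Of the pathway list, Inha was higher by 1.27, Lrrc32 by 1.11 and Fstl3, a secreted activin antagonist that read 35, 26.5 and 66.2, by 1.03. Inhba was at least 3.87-fold lower. Fn1 was 3.26-fold higher at its brightest probe, with AtmsKO not well above background, whereas the other probe measured on both arrays differed by -0.43.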

How the data were processed

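RNA of sorted LT-HSCs from WT, AtmsKO and Atmp38dKO mice was read on 1 Agilent array per genotype. The authors deposited scanner output of Agilent Feature Extraction 11.5.1.1, whose processed intensity per spot is background-subtracted and detrended within the array, and a table of log2 values scaled to the 75th percentile (matched within 0.02 for 99.6% to 99.8% of probes). From the intensities, control and outlier spots were left out, spots of a probe averaged, and log2 intensity minus the 75th percentile of each array taken. A probe was well above background if over 50% of its spots were. Dimmer values that lay under the lowest normalized signal well above background on that array were raised to it. A fold against a raised value is a lower bound. Only relative levels remain after scaling. A difference counted from 2-fold with the brighter array well above background, and a probe was tested where 1 or both of the arrays had it well above background. RefSeq (GRCm38.p6, names only) named 32991 of 56600 probes, the others keeping the file's name. A gene was its probe of highest mean.

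Named from the pathway list were the 3 largest measured differences per comparison and direction whose other probes shared the direction. The largest difference among genes well above background on 1 array only was named too. Other named list genes were chosen after their values were seen. For the leading member the 5 nearest genes by both differences from WT were named. The members, lists and rules were chosen with earlier results of these data known. Alternatives were normexp (limma 3.58.1, offset 50), median centring, quantile normalization, the deposited log2 table, no floor, both arrays above background, 1.5-fold and 4-fold thresholds, and the mean over probes. Python 3.11.15, numpy 2.4.6 and pandas 2.3.3 were used. With 1 array a group, precision is limited by that number. The functions were tested on simulated data.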

Additional observations from a re-analysis of the deposited data

How the results depend on the processing

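Of 210 single gene values under the alternatives, 203 stayed within scanner error of the reported value, 7 moved further and 9 took the other sign, none over 0.24 in size, and no gene 2-fold changed turned its direction. Averaged over probes, Tgfbr1 was 0.78 on AtmsKO against WT (0.02 at the brightest), and on the array labelled Atmp38dKO against WT Tgfbr1 was 0.24, Smad4 -0.14 and Skil -0.68. With normexp, Tgfbr2 was 0.21 between the mutant arrays. No paired analysis was possible because a group was 1 array, and none could be left out. Counts at 2-fold moved the most: 66 of 102 stayed within 1.5 times and 36 did not. In AtmsKO against WT, normexp background left 0 member probes higher and 0 pathway genes higher or lower. The 4-fold threshold left 0 of these too, the 1.5-fold threshold gave 6 pathway genes higher and 11 lower, and the deposited table and the values with no floor gave 3 higher. In the array labelled Atmp38dKO against WT, 1 member probe was lower with normexp, quantile normalization or 4-fold, and 1 was higher and 5 lower at 1.5-fold. There the pathway list gave 0 higher and 1 lower with normexp, 9 and 14 at 1.5-fold, 0 and 0 at 4-fold, and 4 higher as the mean over probes. Between the mutant arrays, 0 member probes were lower with normexp or 4-fold and 2 at 1.5-fold. There the pathway list gave 0 higher and 0 lower with normexp and at 4-fold, 9 and 10 at 1.5-fold, 3 higher with quantile normalization, 2 lower with median centring, with the deposited table and with no floor, and 0 lower where both arrays had to be above background. Atm was -0.81 on AtmsKO with normexp and -2.08 as the mean over probes, -0.65 on the array labelled Atmp38dKO as that mean, and 0.65 between them with normexp, and Mapk14 was 0.11 on AtmsKO as the mean. The cause of these shifts was not tested.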
